A study of Mus musculus with 6 samples.

Results

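Fatty acids reach the adipocyte through a short chain of proteins, and 10 genes of that chain were followed here in inguinal white adipose tissue (iWAT), the subcutaneous fat depot of the groin: the binding proteins Fabp3, Fabp4 and Fabp5, the transport proteins Slc27a1, Slc27a2, Slc27a3 and Slc27a4, the scavenger receptor Cd36, the lipase Lpl and its anchor Gpihbp1. They were chosen by name from the pathway, with earlier results of these data known. Every probe whose annotated transcript is a RefSeq transcript of one of them was taken. These were 12 probes, with a pair each for Fabp3 and Lpl and 1 for each of the other genes, and all 12 passed the filter on dim probes, which kept a probe that the scanner software marked as well above background in every replicate of WT, of Zip13-KO or of both. The 10 genes were among 15306 genes tested.

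The study compared the iWAT of Zip13-KO mice with that of wild-type (WT) littermates, with 3 arrays for each genotype. Zip13 (Slc39a13) encodes a zinc transporter, and in the KO allele exons 6 to 8 were replaced by a Neo cassette through homologous recombination in R1 ES cells, so that the gene was lost in every cell of the mouse and not in fat alone. All mice were on the C57BL/6J background, were 10 weeks old and ate powdered food, because the KO animals have missing teeth. The labels number 3 replicates of each genotype without saying that each is 1 animal, so that the p-values measure the spread between these arrays.

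As background, triglyceride in lipoproteins is split at the wall of the capillary by lipoprotein lipase, which is made by adipocytes and carried across and held on the endothelial surface by GPIHBP1. The fatty acids set free enter cells with the help of CD36 and of the SLC27 proteins, most of which also join the fatty acid to coenzyme A, and inside the cell small proteins of the FABP family bind and carry them. Fabp4 is the abundant form of white adipocytes, whereas Fabp3, the heart and muscle form, is also found in brown adipocytes, which burn fatty acids for heat.

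Of the 10 genes, 6 were higher in Zip13-KO iWAT, 0 were lower and 4 were not called. The 6 were Fabp3 and Slc27a2, with changes of 27.3-fold and 18.3-fold, and Gpihbp1, Slc27a1, Fabp5 and Cd36, with changes of 1.62-fold to 2.37-fold. The folds of Fabp3 and Slc27a2, which were dim in WT, depended on the background correction: with normexp their log2 fold changes were 4.09 and 3.25 in place of 4.77 and 4.19, and both were still called. A gene was called at a Benjamini-Hochberg adjusted p under 0.05 over all genes tested in limma, a linear model that pools the spread over genes, together with a change of more than 1.5-fold. By this rule 10.3% of all genes tested were higher and 8.34% were lower. Because the 10 genes were chosen with earlier results of these data known, shares of all genes are a description and no test of the set. The median log2 fold change, Zip13-KO minus WT, was 0.80 over the 10 genes and -0.00053 over all genes. Every Zip13-KO array lay above every WT array for 8 of the 10 genes, against 29.0% of all genes, and for 0 of them did the order run the other way, against 26.0% of all genes. The count of 6 depended on single arrays, and without Zip13-KO replicate 2 it was 3, with Slc27a1, Slc27a2 and Gpihbp1 still called.

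**Figure D1:**
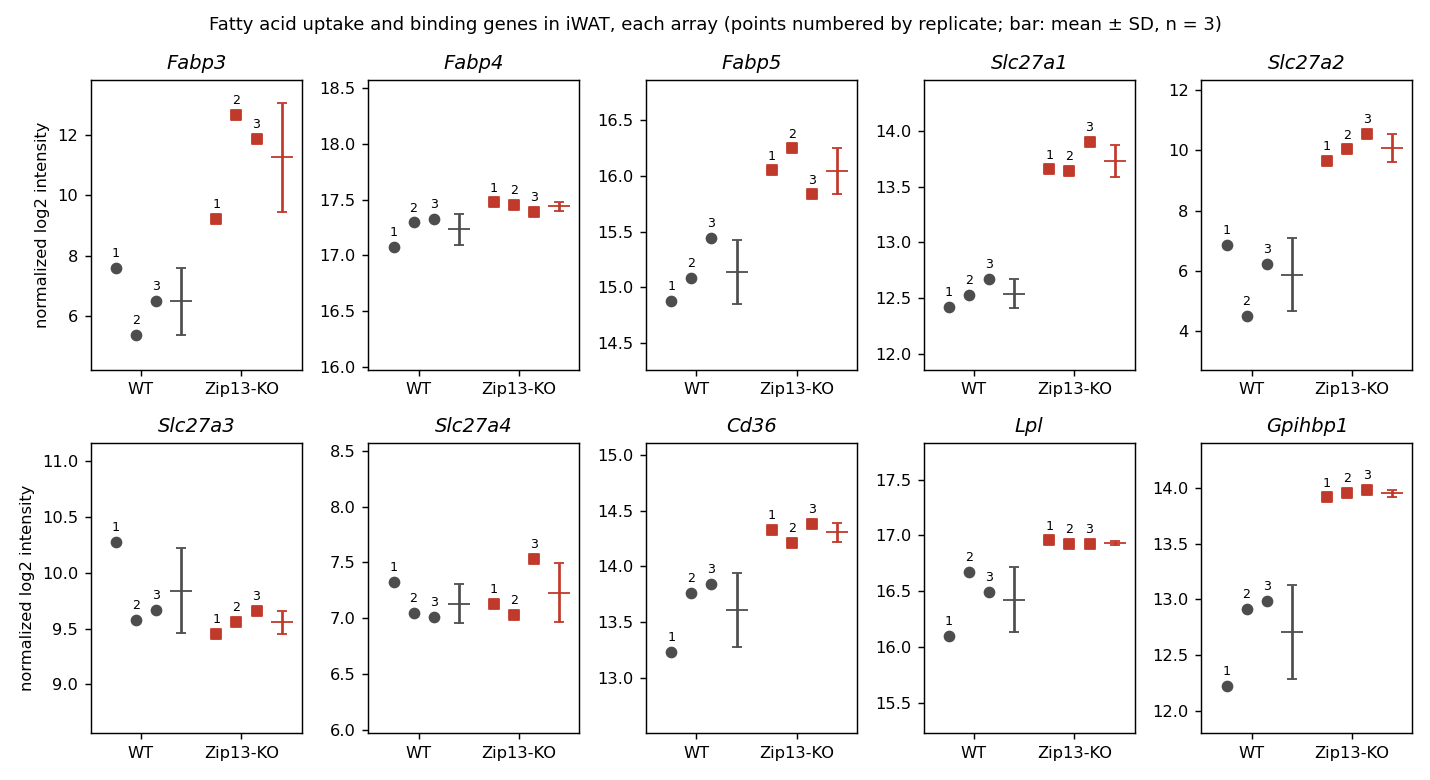
Normalized log2 intensity of the probe that stands for each of the 10 genes on every array, with WT as grey circles, Zip13-KO as red squares, numbers for the replicates and bars for the mean ± SD (n = 3). The vertical scale spans the same range in all panels except those of Fabp3 and Slc27a2, which span more. The genotypes do not overlap in 8 panels and overlap in those of Slc27a3 and Slc27a4.

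The targeted gene was low in all Zip13-KO arrays, as the labels require. Slc39a13 stood at 10.96 ± 0.30 in WT and 6.63 ± 0.15 in Zip13-KO (mean ± SD of normalized log2 intensity, n = 3), a log2 fold change of -4.33 (limma adjusted p = 0.00132), and the probe lies on a transcript whose relation to the deleted exons was not examined. The 6 arrays shared 1 slide and 1 scan. Their median processed signal was 39.2 to 40.6 in WT and 33.2 to 35.0 in Zip13-KO, 62.5% to 63.2% of spots were well above background in WT and 58.8% to 60.4% in Zip13-KO, and no spot was saturated. The part of this difference in the results was not tested. Replicate 1 of Zip13-KO and the WT arrays lay in the same column of the slide, whereas replicates 2 and 3 of Zip13-KO lay in the other. In that shared column alone, with 1 Zip13-KO array, the log2 fold changes were 2.74 for Fabp3, 0.93 for Fabp5, 1.10 for Slc27a1, 3.77 for Slc27a2, 0.71 for Cd36 and 1.19 for Gpihbp1. The spread within Zip13-KO cannot be measured from 1 array, so calls missing there do not tell whether a gene changed.

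Among the binding proteins, Fabp3 and Fabp5 were higher and Fabp4 was not called. The normalized log2 intensity of Fabp3 was 7.60, 5.38 and 6.50 in WT replicates 1 to 3 and 9.24, 12.68 and 11.88 in Zip13-KO replicates 1 to 3. All Zip13-KO arrays were above all WT arrays, but the 3 Zip13-KO arrays were far apart, with replicate 1 well below the others. The mean was 6.49 ± 1.11 in WT and 11.26 ± 1.80 in Zip13-KO (SD, n = 3), and the log2 fold change was 4.77 (SE 0.99, limma adjusted p = 0.0162). Only 2 of the genes tested had a larger rise. The second Fabp3 probe gave 7.21, 5.39 and 6.34 in WT and 9.20, 12.52 and 11.65 in Zip13-KO, the same order of arrays, with a log2 fold change of 4.81 (SE 0.90, limma adjusted p = 0.0129 over the named probes). Of the 12 probes 7 were higher and 0 lower, against 10% and 8.30% of all named probes tested. The call rested on the upper Zip13-KO arrays, since without replicate 2 the log2 fold change was 4.06 (limma adjusted p = 0.0522) and without replicate 3 it was 4.46 (limma adjusted p = 0.0531).

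Fabp3 is also a gene of skeletal muscle, fibres of which can be carried along with a fat depot. Of 16 muscle markers 14 were tested, and 0 were called higher or lower, though 12 had a positive log2 fold change (median 0.56). Their summed normalized intensity ran from 2881 to 5763 in WT and from 3506 to 12450 in Zip13-KO, and was highest in Zip13-KO replicate 3. Fabp3 was highest in Zip13-KO replicate 2, where the median muscle marker was 0.47 above its WT mean on the log2 scale, against 1.78 in replicate 3. Within each genotype Fabp3 and the median muscle marker were lowest on the same array. That median was -0.48 in WT replicate 2 and -0.09 in Zip13-KO replicate 1. The brightest of these markers, the fast troponin gene Tnni2, had a log2 fold change of 0.36, and those with the highest and lowest values, the creatine kinase gene Ckm and the calcium release channel gene Ryr1, had 1.16 and -0.61. The part of muscle in the Fabp3 result was not tested.

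Fabp4 was near the top of the scale in both genotypes. Its values were 17.08, 17.30 and 17.33 in WT and 17.48, 17.45 and 17.39 in Zip13-KO, while the highest normalized log2 value of any probe was 17.9. The genotypes did not overlap, yet the lowest Zip13-KO array was close to the highest WT array. The log2 fold change was 0.21 (SE 0.09, 95% interval -0.02 to 0.43, limma adjusted p = 0.126). Before normalization the processed signal of this probe was 151000, 167600 and 162000 in WT and 175500, 179200 and 170900 in Zip13-KO.

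Fabp5, the epidermal form, which adipocytes and macrophages also make, was 14.88, 15.08 and 15.44 in WT and 16.05, 16.25 and 15.83 in Zip13-KO. The groups did not overlap, and the spread was similar in both. The log2 fold change was 0.91 (SE 0.18, limma adjusted p = 0.0138), or 1.88-fold. The call was lost without Zip13-KO replicate 1 (limma adjusted p = 0.0528) or replicate 2 (limma adjusted p = 0.0512). Macrophage markers moved the other way, with 9 of 12 called lower, 0 called higher and a median log2 fold change of -1.31, and their summed intensity was 104400 to 173900 in WT and 48270 to 64560 in Zip13-KO. Among them were the Fc receptor gene Fcgr1, which had the lowest value of -2.57, the brightest marker Csf1r, the receptor for the macrophage growth factor, at -1.05, and Itgam, which had the highest value of -0.17 and was not called. Whether macrophage RNA contributed to the Fabp5 values was not tested.

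Of the 4 SLC27 transporters, Slc27a1 and Slc27a2 were higher, and Slc27a3 and Slc27a4 were not called. Slc27a1, the main form of muscle and fat, was 12.42, 12.53 and 12.68 in WT and 13.66, 13.64 and 13.90 in Zip13-KO. Replicates of each genotype lay close together, and the gap between the genotypes was wider than the spread within either. Its log2 fold change of 1.19 (SE 0.11, limma adjusted p = 0.00445) corresponded to 2.28-fold and stayed between 1.10 and 1.26 when any single array was left out.

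Slc27a2, a very long-chain acyl-CoA synthetase best known from liver and kidney, was 6.88, 4.52 and 6.25 in WT and 9.65, 10.03 and 10.55 in Zip13-KO. Here the WT arrays were the scattered ones, with replicate 2 lowest, and all 3 Zip13-KO arrays lay well above them. The spots were well above background on all 6 arrays. The mean was 5.88 ± 1.22 in WT and 10.08 ± 0.45 in Zip13-KO (SD, n = 3), and the log2 fold change was 4.19 (SE 0.61, limma adjusted p = 0.00754), the fourth largest rise among the genes tested. It was called whichever single array was left out, with log2 fold changes of 3.52 to 4.70. Without background correction the log2 fold change was 3.43, as it was from the deposited value table.

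Slc27a3, a synthetase of the family with little known transport activity, was 10.28, 9.58 and 9.66 in WT and 9.45, 9.56 and 9.66 in Zip13-KO, and the groups overlapped apart from WT replicate 1, which was highest. Its log2 fold change was -0.28 (SE 0.19, 95% interval -0.76 to 0.19, limma adjusted p = 0.291), and without WT replicate 1 it was -0.07. Slc27a4, the main form of the small intestine, was 7.33, 7.05 and 7.01 in WT and 7.13, 7.03 and 7.53 in Zip13-KO. The groups were mixed, and the log2 fold change of 0.10 (SE 0.16, 95% interval -0.29 to 0.49, limma adjusted p = 0.654) turned to -0.05 without Zip13-KO replicate 3. Of the remaining family members, the bile acid-CoA ligase gene Slc27a5 was dim, with a log2 fold change of 0.40 that was not called, and Slc27a6 did not pass the filter.

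**Figure D2:**
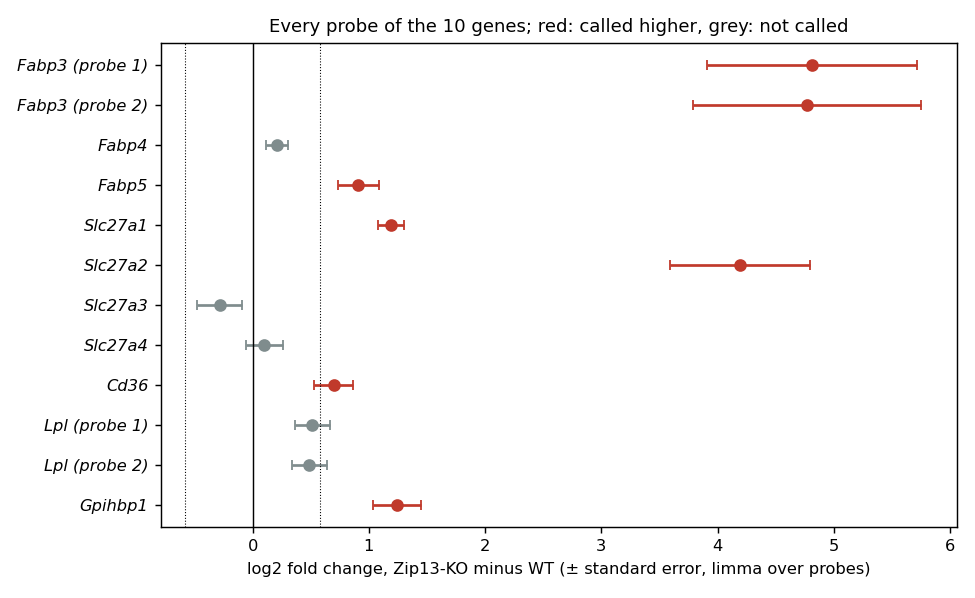
Log2 fold change, Zip13-KO minus WT, of all 12 probes of the 10 genes, with bars for the standard error from limma, red for called higher, grey for not called, and dotted lines at the 1.5-fold threshold. Both Fabp3 probes lie near 4.8 and both Lpl probes near 0.5, just under the threshold.

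Cd36, the receptor through which adipocytes take up much of their long-chain fatty acid, was 13.23, 13.76 and 13.84 in WT and 14.33, 14.21 and 14.38 in Zip13-KO. WT replicate 1 was lowest, and the groups did not overlap. The log2 fold change was 0.70 (SE 0.17, limma adjusted p = 0.0263), or 1.62-fold. This was the least stable of the 6 calls: without WT replicate 1 the log2 fold change was 0.51, under the fold threshold, and without Zip13-KO replicate 1, 2 or 3 the limma adjusted p was 0.0842, 0.0669 or 0.0789.

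Lpl, the lipase itself, was 16.10, 16.67 and 16.49 in WT and 16.96, 16.92 and 16.93 in Zip13-KO. The Zip13-KO arrays were nearly equal and lay above all WT arrays, of which replicate 1 was again lowest. The log2 fold change was 0.51 (SE 0.15, limma adjusted p = 0.0434), or 1.43-fold, so that Lpl passed the p but missed the fold threshold. The second Lpl probe gave 14.90, 15.46 and 15.22 in WT and 15.73, 15.57 and 15.75 in Zip13-KO, with a log2 fold change of 0.49 (SE 0.15, limma adjusted p = 0.0525 over the named probes). Scaling the arrays by their 75th percentile instead of quantile normalization raised the log2 fold change of Lpl to 0.61, and it was then called, as it was without WT replicate 2 (0.63). The limma adjusted p was 0.0745 without WT replicate 3 and 0.101 to 0.119 without any one of the Zip13-KO arrays.

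Gpihbp1, the endothelial anchor of the lipase, was 12.22, 12.91 and 12.99 in WT and 13.91, 13.95 and 13.98 in Zip13-KO. As for Lpl, the Zip13-KO arrays were nearly equal and WT replicate 1 was lowest, but the gap between the genotypes was wider. The log2 fold change was 1.24 (SE 0.21, limma adjusted p = 0.00997), or 2.37-fold, and it was called whichever single array was left out, with values of 0.996 to 1.39.

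The same arrays differed in the markers of adipocytes and of endothelium. Of 12 adipocyte markers, 12 had a positive log2 fold change (median 0.64), and 4 were called higher: the lipase gene Lipe, Adig, Retn, which encodes resistin, and the glycerol channel gene Aqp7, the highest at 1.16. The lowest, and the brightest, was Cfd, which encodes adipsin, at 0.03. The summed adipocyte marker intensity was 637500 to 852200 in WT, lowest in replicate 1, and 969500 to 988300 in Zip13-KO. Of 12 endothelial markers 3 were called higher and 0 lower, with a median of 0.43 and a summed intensity of 31240 to 34700 in WT and 42190 to 45010 in Zip13-KO; the highest was the tight junction gene Cldn5 at 0.78, the lowest Vwf at -0.30 and the brightest Egfl7 at 0.44. In whole tissue, a larger share of a cell type and more RNA per cell cannot be told apart, and the part of either in the results for Cd36, Lpl and Gpihbp1 was not tested. The adipocyte count itself was unstable, at 7 without WT replicate 2 and 1 to 2 without any other array.

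Related genes were also compared within arrays, by taking the difference of their log2 values on each array and comparing it between genotypes. In 9 of 10 such pairs the 3 Zip13-KO differences lay entirely to one side of the 3 WT differences, each with an exact permutation p of 0.1, which is the smallest that 3 against 3 arrays allow (adjusted p = 0.111 over the 10 pairs), so that no pair could pass a threshold. The change of Fabp3 exceeded that of Fabp4 by 4.56 (SE 1.27) and that of Fabp5 by 3.86 (SE 1.25) on the log2 scale, and the change of Fabp5 exceeded that of Fabp4 by 0.70 (the signed difference, Fabp4 minus Fabp5, was -0.70, SE 0.15). The change of Slc27a2 less that of Slc27a3 was 4.48 (SE 0.58) and less that of Slc27a4 was 4.09 (SE 0.67), while Slc27a1 less Slc27a2 was -3.00 (SE 0.74). Slc27a1 exceeded Slc27a3 by 1.47 and Slc27a4 by 1.09. Lpl less Gpihbp1 was -0.73 (SE 0.11). The exception was Slc27a3 less Slc27a4, at -0.38 (SE 0.17, two-sided exact permutation p = 0.2), where the genotypes overlapped. Fabp4 was near the top of the scale, and Fabp3 and Slc27a2 were dim in WT. The part of these limits of the scale in the differences was not tested.

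**Figure D3:**
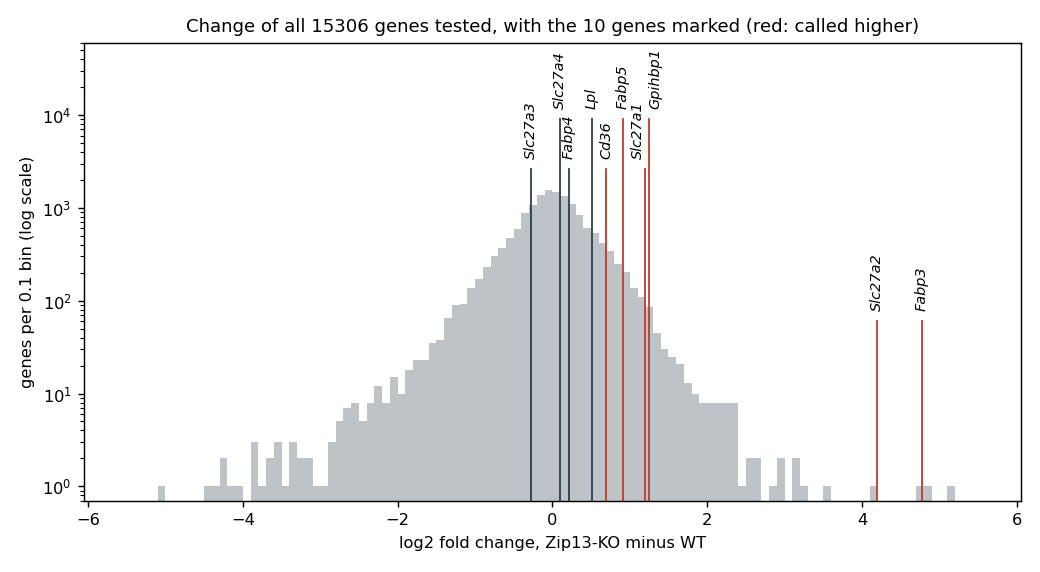
Distribution of the log2 fold change, Zip13-KO minus WT, over all 15306 genes tested (bars, genes per bin of 0.1, log scale), with vertical lines at the 10 genes, red for those called higher. Fabp3 at 4.77 and Slc27a2 at 4.19 lie in the far right tail, and the other 8 lie between -0.28 and 1.24.

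With the difference between genotypes included, the array-to-array pattern of Fabp3 was closest to that of Ucp1, the uncoupling protein of brown and beige adipocytes. Each gene was taken relative to its own WT mean, and likeness was measured as the root mean square difference over the 6 arrays. For Fabp3 the values relative to the WT mean were 1.11, -1.11 and 0.00 in WT and 2.74, 6.19 and 5.38 in Zip13-KO on the log2 scale. For Ucp1 they were 1.25, -1.24 and -0.01 in WT and 3.76, 6.07 and 5.64 in Zip13-KO. Within each genotype the order of the arrays was the same for both genes. The root mean square difference was 0.44 for Ucp1, followed by 0.71 for the fatty acid elongase gene Elovl3, 0.99 for Slc27a2, 1.28 for Cpt1b, the muscle and brown fat form of the mitochondrial carnitine palmitoyltransferase, and 1.39 for Cox7a1, a cytochrome c oxidase subunit.

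For Slc27a2 the values relative to the WT mean were 0.99, -1.36 and 0.36 in WT and 3.77, 4.15 and 4.67 in Zip13-KO. In WT it shared the order of Fabp3, with replicate 1 highest and replicate 2 lowest, but in Zip13-KO its highest array was replicate 3 and the arrays were closer together. The 5 genes nearest to it were Elovl3 at 0.70, Cpt1b at 0.72, Cox7a1 at 0.83, Ucp1 at 0.90 and Fabp3 at 0.99. Elovl3 was well above background on only 2 of the 3 WT arrays, so that its place in both orders is uncertain. The measure includes the difference between genotypes that these genes share, so that genes with rises of similar size rank as near. Ucp1 and Elovl3, at log2 fold changes of 5.16 and 4.84, were with Fabp3 and Slc27a2 among the largest rises of all genes tested. Over 6 arrays the measure is a description.

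**Figure D4:**
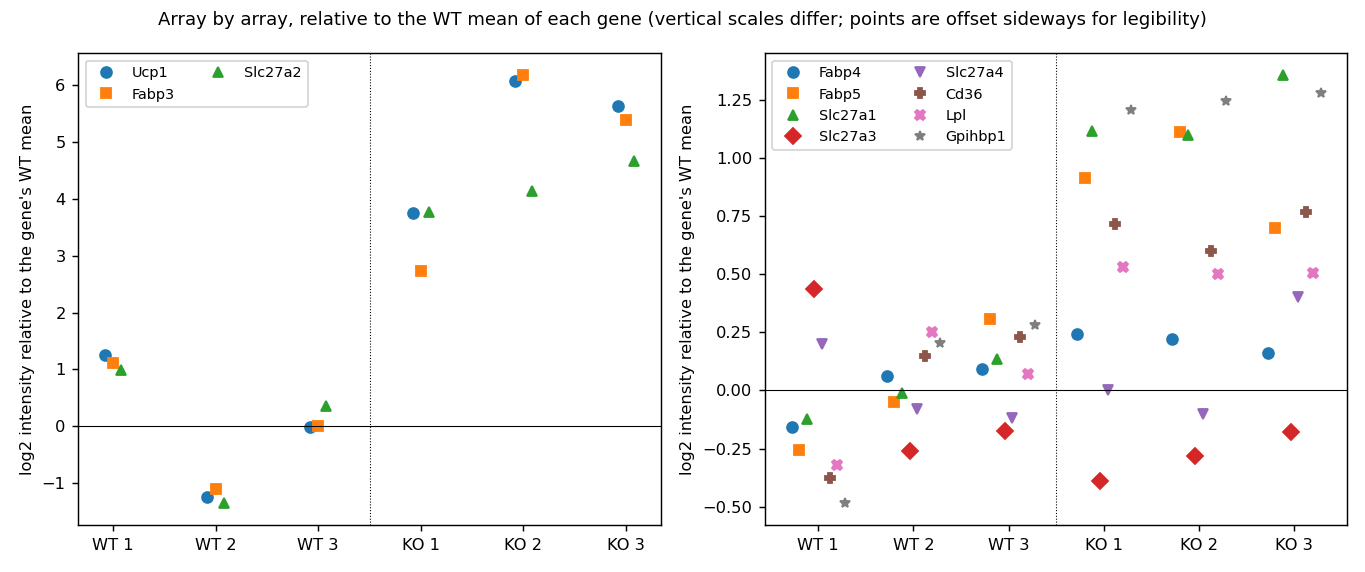
Log2 intensity of each gene on each array relative to that gene's WT mean. On the left, Fabp3 and Ucp1 share the order of the arrays within each genotype and lie furthest apart in Zip13-KO replicate 1, at 2.74 and 3.76. Slc27a2 is flatter among the Zip13-KO arrays, between 3.77 and 4.67. On the right, on a finer scale, every gene but Slc27a3 and Slc27a4 is lowest in WT replicate 1, where Slc27a3 is highest.

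Brown and beige adipocyte markers were higher throughout. All 12 were called, with a median log2 fold change of 2.22, from 0.88 for Letmd1 to 5.16 for Ucp1, and the brightest, the muscle and brown fat cytochrome c oxidase subunit Cox8b, was at 1.65. Their summed intensity was 39920 to 63380 in WT and 171300 to 263300 in Zip13-KO, highest in replicate 2, where Fabp3 was also highest. At least 11 were called when any single array was left out. Ppargc1a is in this list and among the transcription factors below. The part of these cells in the Fabp3 and Slc27a2 results was not tested.

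The promoters of the genes with the largest rises are shown because PPAR transcription factors, which respond to fatty acids, are known regulators of fatty acid uptake genes and bind, with RXR, a direct repeat of AGGTCA with 1 base between the copies. The 250 bases before the start of transcription are given from RefSeq on GRCm38.p6, both read on the plus strand, with any AGGTCA half-site on either strand in capitals. Fabp3 lies at chr4:130308488-130308737 and Slc27a2 at chr2:126552774-126553023.
Fabp3: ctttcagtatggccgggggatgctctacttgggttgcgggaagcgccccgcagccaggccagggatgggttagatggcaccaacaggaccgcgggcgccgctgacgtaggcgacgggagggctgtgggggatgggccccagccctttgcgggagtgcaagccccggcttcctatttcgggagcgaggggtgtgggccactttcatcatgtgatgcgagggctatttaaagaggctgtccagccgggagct
Slc27a2: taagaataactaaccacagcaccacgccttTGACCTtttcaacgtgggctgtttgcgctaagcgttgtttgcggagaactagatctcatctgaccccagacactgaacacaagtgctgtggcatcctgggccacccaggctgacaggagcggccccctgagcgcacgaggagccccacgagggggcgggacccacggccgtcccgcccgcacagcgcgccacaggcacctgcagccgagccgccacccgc

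In Slc27a2 the capitals mark 1 half-site on the minus strand that begins 220 bases before the start, and the Fabp3 stretch holds none. RefSeq promoter windows of 300 bases, 250 before and 50 after the start, were on hand for 6 of the 10 genes, as 8 windows with 3 for Slc27a1, and not for Fabp4, Fabp5, Lpl and Gpihbp1. None of the 8 held the full repeat on either strand, which 0.04% of all 32851 promoters hold, nor the looser form that allows any base at the fourth position of each AGGTCA, which 0.381% hold. The half-site, which overlaps with both, was found in the windows of Slc27a2 and Cd36, and in 16.3% of all promoters. A match in such a window is a description of the letters only.

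A further 80 genes of the pathway were likewise chosen with earlier results of these data known. Of these, 71 were tested, and 25 were higher and 6 lower, against 10.3% and 8.34% of all genes. These counts also leaned on the Zip13-KO arrays, since 8 were higher without replicate 1, 12 without replicate 2 and 12 without replicate 3. In the wider FABP family, 8 of 12 genes were tested. Higher were Fabp12, a little-studied relative, at a log2 fold change of 1.26 (SE 0.25) and Rbp7, a retinol binding protein of adipose tissue and its capillaries, at 1.07 (SE 0.29). Among the 2 that were lower was Fabp7, the brain form, at -0.90 (SE 0.16). These counts were unstable, with 0 higher when Zip13-KO replicate 1 or 2 was left out and 1 lower when any one of the 3 Zip13-KO arrays was left out.

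Regulators and partners of the lipase gave 4 genes higher and 1 lower of 17 tested, with a median log2 fold change of 0.31. Angptl8, a secreted regulator of the lipase induced by feeding, was at 1.59 (SE 0.31), and Apoc3, an apolipoprotein that slows lipolysis, at 1.39 (SE 0.23). The sorting receptor gene Sort1 was also among those higher, at 0.86 (SE 0.21). Sdc1, a heparan sulfate proteoglycan, was lower, at -1.30 (SE 0.22). Angptl4, the lipase inhibitor induced by fasting, had a log2 fold change of -0.05 (SE 0.14) and was not called. Those called higher numbered 1 without Zip13-KO replicate 1 or 2 and 2 without replicate 3.

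Other genes of fatty acid uptake, 18 tested, gave 5 higher and 2 lower, with a median of 0.37. The fatty acid receptor gene Ffar4 was highest at 1.42 (SE 0.36). The acyl-CoA synthetase genes Acsl3, at 1.22 (SE 0.12), and Acsl1, the main adipocyte form, at 1.03 (SE 0.18), were higher as well, as were the monoglyceride lipase gene Mgll at 0.92 (SE 0.25) and the sterol carrier gene Scp2 at 0.63 (SE 0.14). The Src-family kinase genes Fyn and Lyn were lower, at -0.67 (SE 0.11) and -0.65 (SE 0.08); Lyn is also a gene of myeloid cells, whose markers are given above. When any one of the 3 Zip13-KO arrays was left out, 2 were higher.

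Endothelial genes linked to fatty acid transport, 13 tested, gave 5 higher and 1 lower, with a median of 0.24. Tcf15, which with Meox2 drives Cd36 and Lpl in heart capillaries, was at 1.38 (SE 0.33), and Meox2, at 0.46 (SE 0.09), was under the fold threshold. Vegfb, a growth factor linked to endothelial fatty acid uptake, was at 0.90 (SE 0.19) and its receptor gene Flt1 at 0.91 (SE 0.22). The Notch ligand gene Dll4 was at 0.96 (SE 0.17) and the apelin receptor gene Aplnr at 0.80 (SE 0.20), while the integrin gene Itga5 was lower, at -1.20 (SE 0.16). Those higher numbered 1 without Zip13-KO replicate 1 or 3 and 2 without replicate 2.

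Transcription factors and coactivators that act on these genes gave 9 higher and 0 lower of 14, with a median of 0.77. Ppara, the PPAR of oxidative tissues, was highest, with 9.00, 9.55 and 10.16 in WT and 11.56, 11.97 and 11.25 in Zip13-KO, groups that did not overlap, and a log2 fold change of 2.03 (SE 0.32, limma adjusted p = 0.00906). Pparg, the PPAR of adipocytes, was 12.57, 13.04 and 13.19 in WT and 14.26, 13.70 and 14.19 in Zip13-KO, again apart, with 1.12 (SE 0.22, limma adjusted p = 0.0136). Ppard, the form found in most tissues, was the lowest at -0.03 (SE 0.07) and was not called. The coactivator genes Ppargc1b and Ppargc1a were at 1.20 and 1.10, the estrogen-related receptor genes Esrrg, Esrra and Esrrb at 1.16, 0.72 and 0.66, and Klf15 and Cebpa, factors of adipocyte differentiation, at 1.07 and 0.81. Esrrb was dim on every array, at 3.67 to 4.11 in WT and 4.20 to 4.72 in Zip13-KO. Esrrg was dim in WT, at 4.39 to 5.23. The number called higher was 4 without Zip13-KO replicate 1, 7 with normexp and 8 without background correction.

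**Figure D5:**
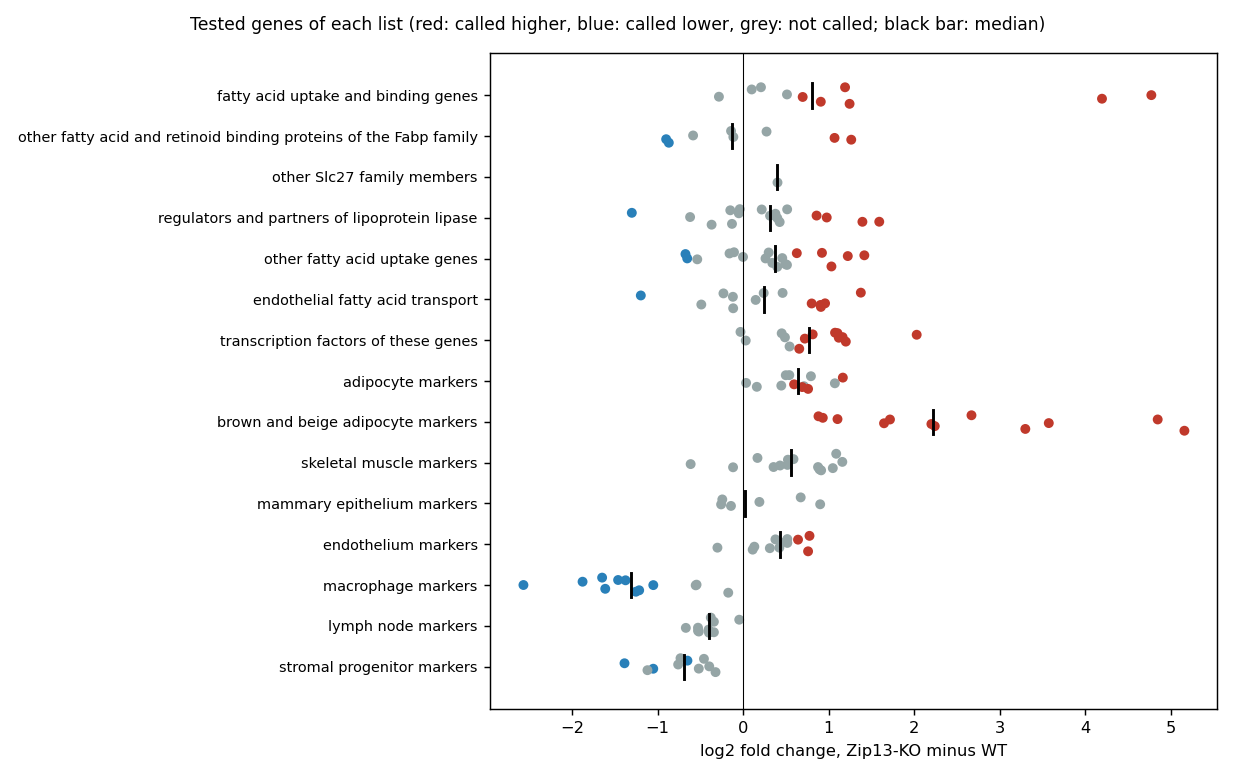
Log2 fold change, Zip13-KO minus WT, of each tested gene in the 10-gene set, the pathway lists and the marker lists, with red for called higher, blue for called lower, grey for not called and a black bar at the median. The median of the 10 genes, 0.80, lies near that of the transcription factors, 0.77, and of the adipocyte markers, 0.64, and below that of the brown and beige markers, 2.22.

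Markers of the remaining cell types of a fat pad were counted in the same way. Of 12 mammary epithelium markers 6 were tested and 0 were called, and the others, which were the casein genes, Wap, Elf5 and Krt8, did not pass the filter; Krt5 had the highest value at 0.90, Cdh1 the lowest at -0.26, and the brightest, Krt19, was at -0.24. Lymph node markers, 10 tested, had 0 called and a median of -0.40, with Cr2 highest at -0.05, Ccr7 lowest at -0.67 and the brightest, Cd79b, at -0.53. Stromal progenitor markers, 10 tested, had 3 called lower, Pdgfra, Dpp4 and Ly6a, the lowest at -1.39, and a median of -0.69, with Cd55 highest at -0.32 and the brightest, the decorin gene Dcn, at -0.40. Their summed intensity was 218200 to 459200 in WT and 187200 to 229600 in Zip13-KO, and the count was 8 without WT replicate 3, 1 without WT replicate 2 and 0 without Zip13-KO replicate 1 or 2. Their part in the results for the 10 genes was not tested.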

How the data were processed

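RNA of iWAT was hybridized in 1 colour to 6 arrays of the Agilent SurePrint G3 Mouse GE design. The authors' scanner files, from Feature Extraction 11.5.1.1, hold each spot's processed signal, an intensity corrected for background. The deposited value table holds log2 intensity that the authors quantile normalized, and it was used as an alternative. The processed signal was taken as log2 without control and outlier spots, quantile normalized between arrays, and averaged over the spots of a probe. Quantile normalization fixes the distribution of every array, so that changes are relative to the other probes. A probe was kept when well above background on all 3 arrays of a genotype. Names came from RefSeq accessions (GRCm38.p6), which matched 28331 of 55681 probes (50.9%), and the brightest probe stood for a gene. Probe sequences were not used here, so cross-hybridization within gene families was not examined. Levels of different probes were used to pick the brightest probe or marker and to sum marker intensities, where bright probes weigh most. They were not read as relative amounts of different transcripts. The number of arrays limits the precision.

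Genotypes were compared with limma 3.58.1 in R 4.3.3 over all genes (adjusted p under 0.05, log2 change over 0.58, both limits as in the supplementary methods), and over all 20315 named probes kept for the single probes. Limma took the place of the combined test of those methods. The procedure was tested on simulated data. Fold change is Zip13-KO over WT. The genes and lists were chosen with earlier results of these data known. Named are the 10 genes, the called genes of the pathway lists (2 that are counted are not reported here by name), the highest and lowest of each list, the brightest marker, and the 5 genes most like Fabp3 and Slc27a2; Meox2, Angptl4 and called markers were added after their values were seen. Alternatives changed the background correction, normalization, filter, probe choice, test, variance prior and thresholds, added a replicate block, and left out each array in turn.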

Additional observations from a re-analysis of the deposited data

How the results depend on the processing

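Slc27a1, Slc27a2 and Gpihbp1 were called under every alternative except the arrays of slide column 1 alone, a choice made after seeing the data that leaves 1 Zip13-KO array, assumed to vary like the WT arrays. There, 0 of the 10 genes, 0 of their probes, 0 pathway genes higher and 0 lower, and 16 genes higher and 8 lower in all, were called, with log2 fold changes of 2.74 for Fabp3, 0.93 for Fabp5, 1.10 for Slc27a1, 3.77 for Slc27a2, -0.0016 for Slc27a4, 0.71 for Cd36, 1.19 for Gpihbp1 and -4.18 for Slc39a13. An ordinary t-test, which is only part of the combined test of the supplementary methods, was also run with Benjamini-Hochberg adjustment. By it 3 of the 10 genes, 8 pathway genes and 1000 genes in all were higher and 713 lower. Fabp3 (4.77), Fabp5 (0.91) and Cd36 (0.70) were lost. At an adjusted p under 0.01, 3 of the 10 genes, 2 of their probes, 5 pathway genes and 696 genes in all were higher, and 3 pathway genes and 497 genes in all lower. A 2-fold threshold left 14 pathway genes higher and 2 lower, and 482 genes higher and 506 lower in all, which moved the share of calls that were higher from 55.3% to 48.8%, and no fold threshold gave 2944 and 2318. Dropping the filter, with the brightest probe still standing for a gene, left 15 pathway genes higher and took Cd36 (0.70, limma adjusted p = 0.0503) out. Scaling by the 75th percentile called Lpl, at 0.61. Normexp, no background correction and the deposited table lowered Fabp3 to 4.09, 4.25 and 4.25 and Slc27a2 to 3.25, 3.43 and 3.43, all still called. The replicate block, for numbers that the labels share but that did not pair the arrays (correlation of same-numbered deviations -0.02, 0.04 and -0.08), gave 1303 genes higher and 1054 lower and took out Fabp3 (4.77, limma adjusted p = 0.0555) and Cd36 (0.70, limma adjusted p = 0.0516). Leaving out 1 array at a time gave 3 to 7 of the 10 genes higher, 4 to 9 of their probes higher, 8 to 25 pathway genes higher and 5 to 7 lower, and 960 to 1658 genes higher and 763 to 1469 lower in all, with log2 fold changes of 4.06 to 5.77 for Fabp3, 0.77 to 1.05 for Fabp5, 0.51 to 0.82 for Cd36, 0.36 to 0.63 for Lpl and -0.05 to 0.20 for Slc27a4, which turned to -0.051 without Zip13-KO replicate 3. The causes were not tested. No value of the 10 pairwise differences between related genes changed direction. The background alternatives used the median signal, since no mean signal was on hand, and slide and scan gave no block because all arrays shared both.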
